A study of Mus musculus with 4 samples.

Results

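Collagens are the proteins of the extracellular matrix that hold a triple helix, built from chains that repeat glycine after every 2 other amino acids. The collagen genes described here are the protein-coding mouse genes of GENCODE release 21 whose symbol is Col, a type number, the letter a and a chain number. There are 44 of them, with 224 annotated transcripts, among 35427 genes with a transcript in the data and 21725 protein-coding genes. The choice used symbols and annotation, and no measured value.

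RNA came from the hippocampus of C57BL/6J mice aged 4 months of the line P2RY12CreER x Rpl22HA, in which CreER under the control of P2RY12, a gene of microglia, turns on an HA-tagged Rpl22 in the ribosome. Translating ribosomes were pulled down by the tag and the RNA was enriched for polyA. All mice were fear conditioned, a training that pairs a place or cue with a shock. In the SD group mice were then kept awake for 6 h (sleep deprivation), and in the control group mice were left to sleep for the same 6 h. Groups were read from the sample titles, since the treatment field names sleep deprivation for all samples. Each group has 2 deposited files, and each sample pooled 2 mice. The labels give neither the induction of CreER nor a sample from before the pulldown.

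Files of the same group differed from each other by less than sampling noise. The chi-square value divided by its degrees of freedom was 0.227 for the SD files and 0.335 for the control files over all genes, and 0.0225 for the SD files and 0.0286 for the control files over collagen genes. Between a file of SD and a file of control it was 69.1 to 69.3 over all genes and 32.3 to 32.6 over collagen genes. The mean of the 2 files was therefore used as 1 library per group (n = 1), so there is no replicate check and no p-value. A gene is called higher or lower in SD when the ratio of SD over control is at least 2-fold and its exact 95% counting interval, given in brackets, excludes 1. Such intervals cover counting error only, so variation between mice and between pulldowns is not in them. Files held 14473030 and 14431647 estimated reads in SD, against 14877011 and 14833320 in control. Fewer cells of a type and less RNA per cell cannot be told apart in these samples.

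Collagens are grouped by the structure they form. Fibrillar collagens have 1 long helix, unbroken in most of them, and pack into banded fibrils. Basement membrane collagens (type IV) have many breaks in the helix and join into sheets under epithelia and around blood vessels. Fibril-associated collagens sit on fibrils, transmembrane collagens are anchored in the cell surface, and multiplexins carry long non-helical ends that can be cut off as signalling fragments. Beaded filament collagens (type VI) form fine filaments, and short-chain collagens (types VIII and X) form lattices. In brain, most collagen is known from the meninges and the walls of vessels, while several transmembrane and fibril-associated types are known from neurons.

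The class differences can be read in the coding sequence, because each helix is written as a run of glycine codons (GGN), each followed by 2 other codons. Sequences are shown for 6 collagens that results below turn on, each as the first 54 bases of the longest such run of the coding transcript with the most reads, 5′ to 3′ on the coding strand of GRCm38, with the glycine codons in capitals.
Col24a1 (chr3, fibrillar): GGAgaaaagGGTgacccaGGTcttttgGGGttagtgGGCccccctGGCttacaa
Col5a3 (chr9, fibrillar): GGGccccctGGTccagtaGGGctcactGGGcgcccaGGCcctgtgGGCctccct
Col4a1 (chr8, basement membrane): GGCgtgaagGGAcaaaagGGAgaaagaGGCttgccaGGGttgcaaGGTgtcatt
Col19a1 (chr1, fibril-associated): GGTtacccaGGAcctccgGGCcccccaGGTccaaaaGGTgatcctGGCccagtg
Col23a1 (chr11, transmembrane): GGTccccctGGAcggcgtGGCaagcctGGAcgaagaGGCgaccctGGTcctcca
Col18a1 (chr10, multiplexin): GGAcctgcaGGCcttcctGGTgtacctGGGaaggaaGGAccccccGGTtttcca

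In the 11 fibrillar genes the longest run held 216 to 344 glycine triplets, with a median of 338. The shortest of these were those of Col24a1 with 216 and Col27a1 with 217, the pair of late-described fibrillar chains. All runs together held 327 triplets in Col24a1 and 329 in Col27a1, so in these genes a further part lay in shorter runs. In the 6 type IV genes the coding sequence was broken into 22 to 27 runs, the longest of 39 to 66 triplets. In the 9 fibril-associated genes the longest run held 32 to 113 triplets, and in the 4 transmembrane genes 37 to 55. The share of codons within runs was 74.9 to 78.8% in type IV genes, 53.5 to 77.2% in fibrillar genes and 12.2 to 31.9% in the 6 beaded filament genes. A run was counted from 4 triplets.

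Collagen genes together took 21257 and 21127 estimated reads in the SD files, against 16584 and 16517 in the control files. Before TMM scaling that is 1469 and 1464 CPM in SD, against 1115 and 1114 CPM in control. The summed CPM, scaled by TMM, was 1503 in SD and 1095 in control, a ratio of 1.37 (1.35 to 1.40). This sum rests on a few abundant genes, since the median collagen gene had a log2 ratio of -0.18, against 0.002 over all 14907 measured genes. Over the 39 collagens that passed the filter on low counts in both libraries the median was 0.060. Of the 42 measured collagens, 20 had a ratio above 1 and 22 below 1. Without Col18a1, the gene with the most reads, the ratio of the summed CPM was 1.31.

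By the size rule 3 of the 42 measured collagens were called higher in SD and 6 lower. Over all measured genes 9.91% were called, 4.37% higher and 5.54% lower. Called higher were Col5a3 (fibrillar), Col19a1 (fibril-associated) and Col6a3 (beaded filament). Called lower were Col24a1 and Col2a1 (fibrillar), Col6a4, Col6a5 and Col6a6 (beaded filament), and Col28a1. Among the 6 called lower, Col6a5, Col6a6 and Col28a1 passed the filter on low counts only through control, so that these 3 had to be low in SD. The interval lay above 1 at any fold in 16 collagens and below 1 in 13, where it lay above 1 in 32.1% and below 1 in 29.8% of all measured genes, 62% together. The genes nearest the 2-fold limit were Col5a3 at 2.09 and Col6a3 at 2.14 inside it, and Col4a3 at 1.998 and Col5a1 at 1.97 outside it. The other 2 collagens were too low to be measured, Col14a1 with 3 estimated reads in SD and 1 in control, and Col10a1 with 0 in SD and 2 in control.

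**Figure D1:**
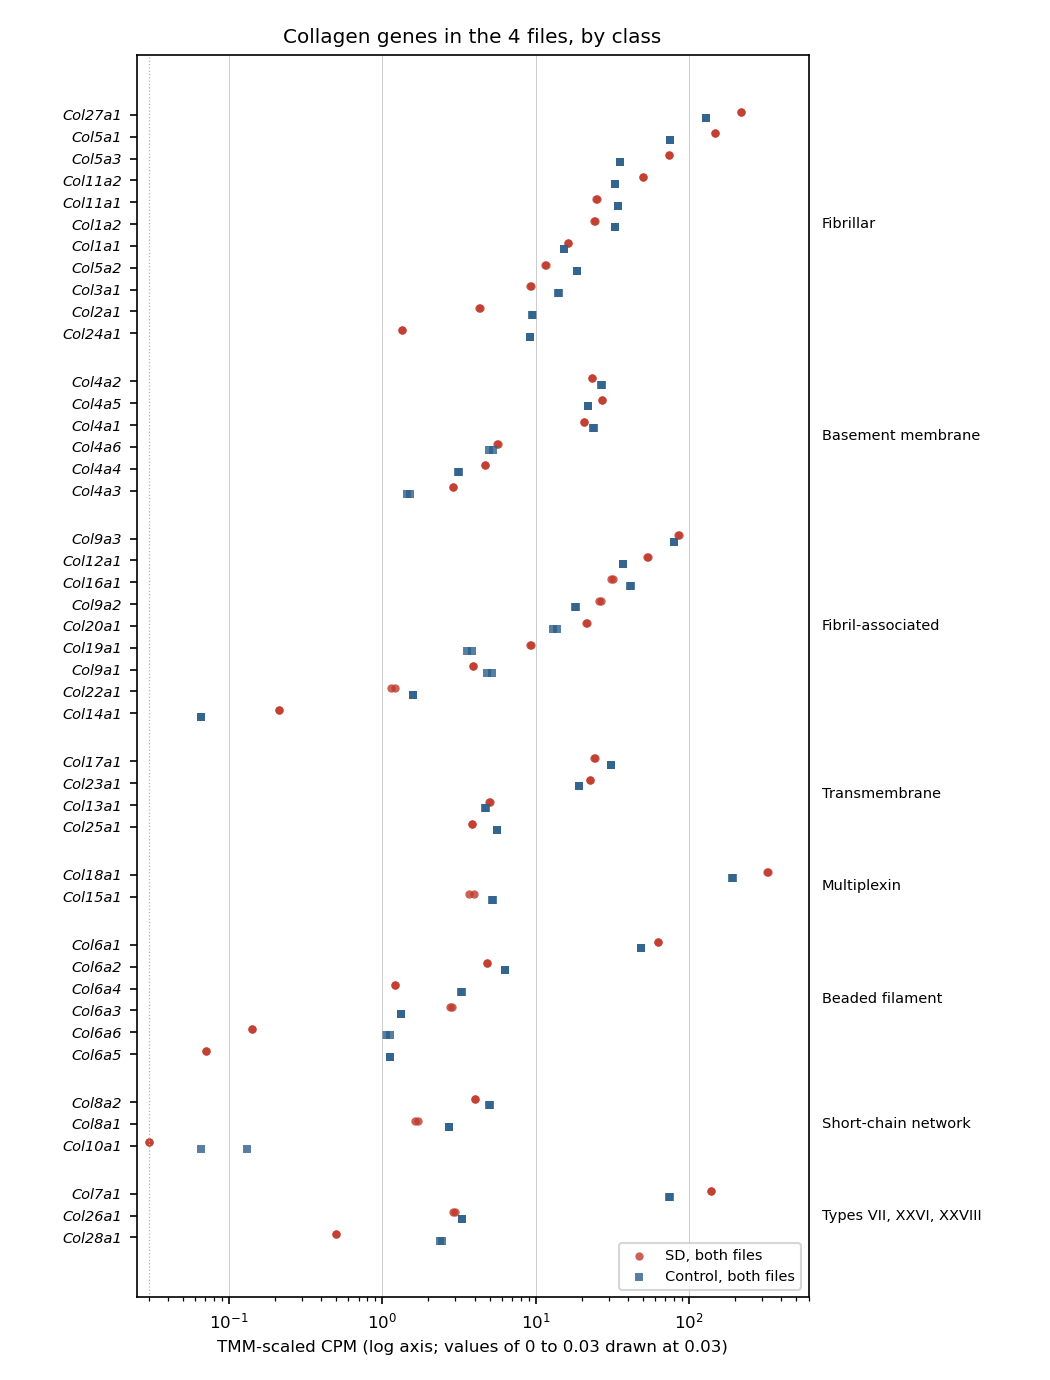
TMM-scaled CPM of the 44 collagen genes on a log axis, by class, with 1 red circle per SD file and 1 blue square per control file, and values of 0 drawn at the left edge. The 2 files of a group overlap at nearly every gene, and levels span from below 0.1 CPM to 324 CPM (Col18a1 in SD).

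Levels per length (TPM, the authors' transcript abundances summed per gene) set the order of the collagens within a library. Col7a1, Col18a1, Col9a3 and Col27a1 were at the top in SD, at 138, 126, 82.0 and 81.0 TPM. In control the same genes were at 89.5, 64.1, 52.0 and 43.0 TPM, and Col16a1 was at 59.0 TPM, against 28.9 TPM in SD. The TPM of Col7a1 and Col16a1 is raised by short transcripts that hold a part of the gene, described below. The genes usually most abundant in fibrous tissue were lower, with Col1a1 at 5.38 TPM in SD and 4.36 TPM in control, Col1a2 at 10.7 and 10.5 TPM, and Col3a1 at 5.94 and 8.59 TPM.

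Fibrillar collagens summed to 583 and 581 CPM in the SD files, against 406 and 406 CPM in the control files, a ratio of 1.43 (1.39 to 1.48). The members moved apart: 5 of 11 ratios were above 1 and 6 below, 1 gene was called higher and 2 lower, and the median log2 ratio was -0.44. Without Col27a1, which had the most reads, the ratio of the sums was 1.31.

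Col27a1, a fibrillar chain known from cartilage, had 3098 and 3077 estimated reads in SD, against 1957 and 1950 in control. The ratio was 1.70 (1.60 to 1.80), short of 2-fold. Col5a1, a chain of type V collagen, which limits the width of type I fibrils, had 2087 and 2063 reads in SD, against 1131 and 1131 in control. Its ratio was 1.97 (1.83 to 2.12), and with a correction for transcript length it was 2.06, past 2-fold. Col5a3, the third chain of type V, had 1044 and 1041 reads in SD, against 535 and 535 in control, a ratio of 2.09 (1.88 to 2.32), called higher. The remaining type V chain went the other way in value. Col5a2 had 164 and 163 reads in SD, against 281 and 281 in control, a ratio of 0.626 (0.513 to 0.761).

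Chains of the other fibrillar molecules were also split. For type XI, a partner of type II in cartilage fibrils, Col11a2 had 708 and 700 reads in SD, against 499 and 496 in control, and Col11a1 had 356 and 350 in SD, against 519 and 516 in control. The ratios were 1.52 (1.35 to 1.70) for Col11a2 and 0.731 (0.636 to 0.838) for Col11a1. With the correction for transcript length Col11a2 was at 2.82, and with coding transcripts alone Col11a1 was at 1.02. For type I, the main collagen of bone, skin and meninges, Col1a1 had 231 and 230 reads in SD, against 233 and 232 in control, and Col1a2 had 340 and 341 in SD, against 498 and 494 in control. The ratios were 1.06 (0.882 to 1.28) for Col1a1 and 0.737 (0.640 to 0.848) for Col1a2. Col3a1, which joins type I in vessels and soft tissue, had 132 and 129 reads in SD, against 216 and 210 in control, a ratio of 0.654 (0.522 to 0.818). These intervals cover counting error only, so differences between chains of this size have no replicate check.

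The 2 fibrillar genes called lower were Col2a1 and Col24a1. Col2a1, the main collagen of cartilage, had 60 and 61 reads in SD, against 144 and 144 in control, a ratio of 0.447 (0.325 to 0.608). Col24a1, a minor fibrillar collagen known from developing bone, had 19 and 19 reads in SD, against 139 and 138 in control, a ratio of 0.148 (0.0863 to 0.239). This is a low gene, at 1.35 CPM in SD and 9.13 CPM in control.

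**Figure D2:**
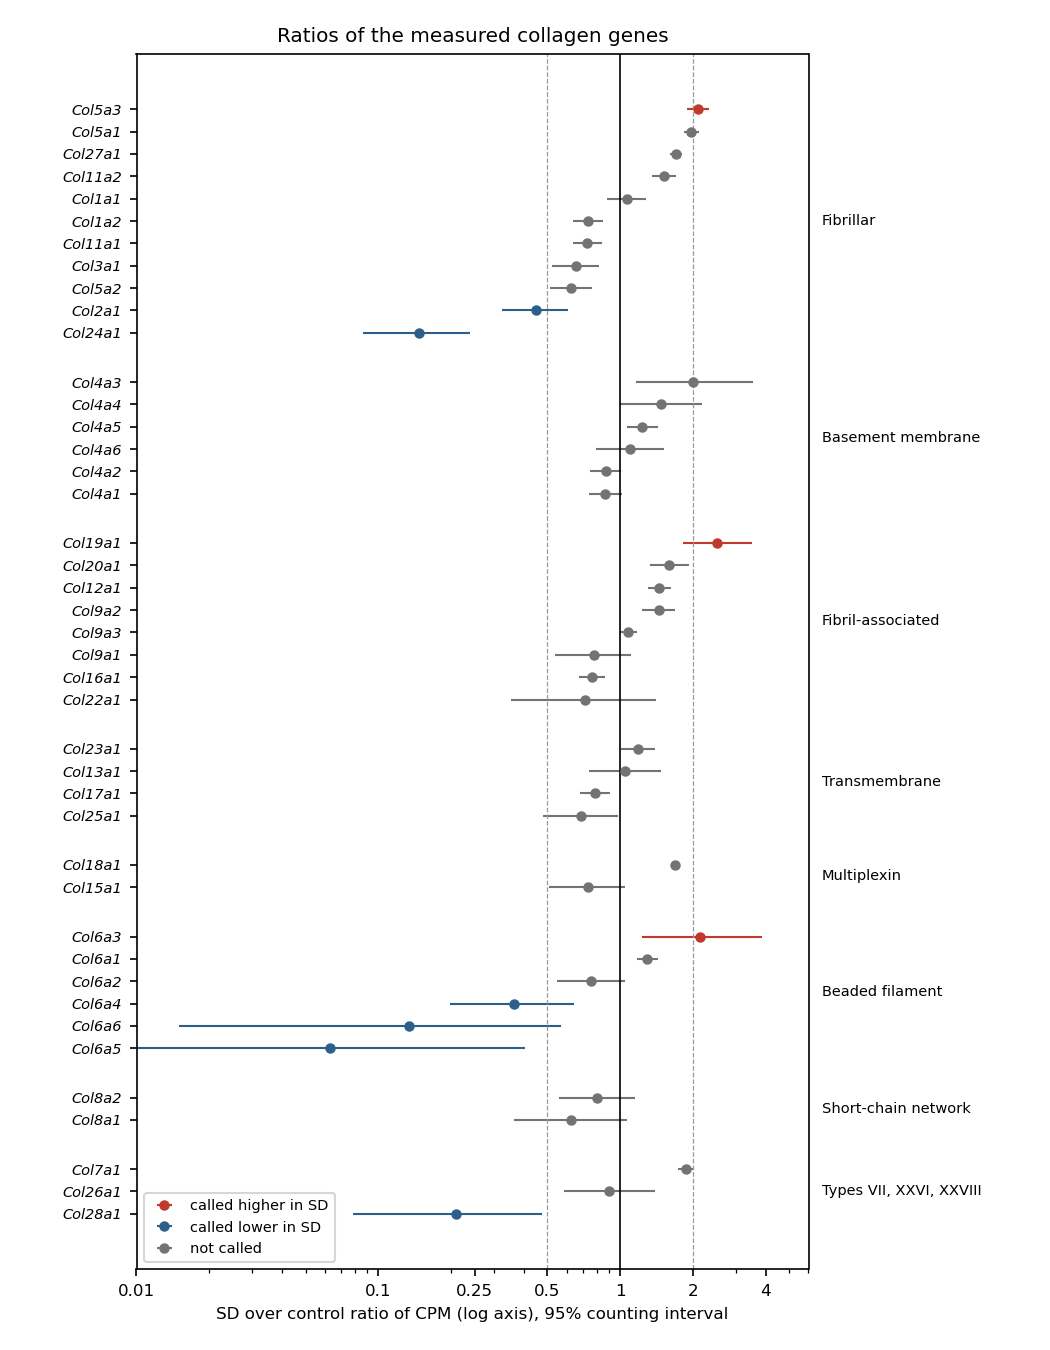
Ratio of SD over control CPM (points, log axis) with the 95% counting interval (bars) for the 42 measured collagens, by class, red where called higher, blue where called lower and grey where not called; dashed lines mark 2-fold. The interval of Col6a5 runs past the left edge. Most classes hold genes on both sides of 1, such as Col5a3 at 2.09 and Col24a1 at 0.148 among the fibrillar collagens.

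Most of the Col24a1 difference was estimated on 1 short transcript, which holds the 3′ end of the gene. Over all genes, a lower share of such 3′ end transcripts in SD was the more common direction, in 61.4% of 1807 genes, as described below. Col24a1 lies on chromosome 3 (GRCm38, chr3:145292472-145552011, plus strand) and has 4 annotated transcripts, of which only Col24a1-201 and Col24a1-204 had reads. Col24a1-201 is the full coding transcript, with 60 exons and 7143 bases. Col24a1-204 is annotated as a retained-intron transcript of 2 exons and 1777 bases that begins at base 145544973 of the chromosome. It shares 1663 bases (93.6%) with exons 59 and 60 of Col24a1-201, and only its first 114 bases, which lie in the intron before exon 59, are its own. Its start is shown beside the exon junction that takes its place in the full transcript, in lower case before exon 59 and in capitals for the first 36 bases of exon 59, which starts at base 145545087.
Col24a1-204 (chr3:145544973-145545122): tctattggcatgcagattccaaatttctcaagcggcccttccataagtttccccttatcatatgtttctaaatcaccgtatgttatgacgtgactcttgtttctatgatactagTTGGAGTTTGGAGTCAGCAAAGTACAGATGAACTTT
Col24a1-201 (end of the exon before, then exon 59): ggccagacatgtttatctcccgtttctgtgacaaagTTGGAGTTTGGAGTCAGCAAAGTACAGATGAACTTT

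Col24a1-201 was estimated at 19 and 19 reads in SD, against 59.2 and 59.4 in control, a ratio of 0.345 (0.194 to 0.587), called lower. Col24a1-204 was estimated at 0 and 0 reads in SD, against 79.8 and 78.6 in control. Set against a floor of 3 reads in SD, it was 24.6-fold lower, and the upper limit of its counting interval was a ratio of 0.0513. In control Col24a1-204 held 57.2% of the gene's reads (Wilson 95% interval 48.9 to 65.2). In SD it held 0 of 19 reads, which allows a share of up to 15.8%. Both transcripts were thus lower in SD, the short one by more. Nearly all of Col24a1-204 also lies in Col24a1-201, so the split between them is a model's estimate, and only the gene's total does not depend on it. With coding transcripts alone the gene's ratio was 0.350, and with the correction for transcript length 0.0493.

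**Figure D3:**
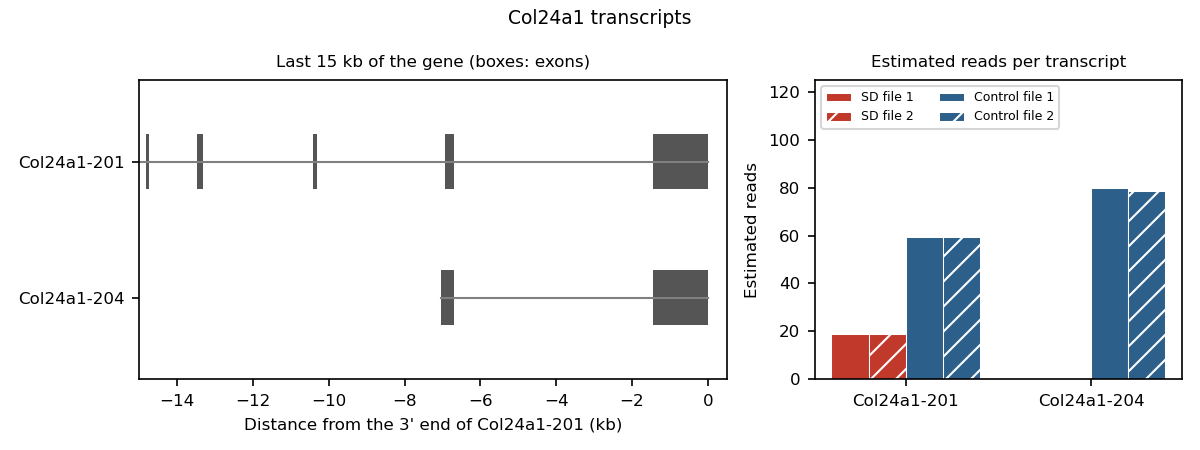
Left, exons (boxes) of Col24a1-201 and Col24a1-204 over the last 15 kb of the gene, by distance from the 3′ end of Col24a1-201; right, estimated reads per transcript in each file, SD files in red and control files in blue. Col24a1-204 covers the last 2 exons and has 0 reads in both SD files, against 79.8 and 78.6 in the control files.

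Basement membrane collagens summed to 84.5 and 84.2 CPM in the SD files, against 82.4 and 82.5 CPM in the control files, a ratio of 1.02 (0.944 to 1.11), or 0.979 with the correction for transcript length. Of 6 genes, 4 had ratios above 1 and 2 below, none was called, and the median log2 ratio was 0.22. Over the 14907 genes, 9.91% were called.

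Col4a1 and Col4a2, the chains of the type IV network found in nearly all basement membranes, had close ratios. Col4a1 had 293 and 291 reads in SD, against 364 and 358 in control, a ratio of 0.867 (0.741 to 1.01). Col4a2 had 330 and 328 reads in SD, against 404 and 407 in control, a ratio of 0.869 (0.749 to 1.01). The other 4 chains make more specialised networks, known from kidney, eye and ear, where mutations of Col4a3, Col4a4 or Col4a5 cause Alport syndrome in humans. Col4a3 had 41 and 41 reads in SD, against 22 and 23 in control, a ratio of 1.998 (1.16 to 3.52) that just missed 2-fold. Its transcripts share 5.65% of their bases with another annotated gene. Col4a4 was at 1.47 (1.001 to 2.18), Col4a5 at 1.23 (1.06 to 1.43) and Col4a6 at 1.10 (0.795 to 1.52). Over all 6 genes, the 4 specialised chains were above 1 and the 2 common chains below 1.

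Fibril-associated collagens summed to 233 and 233 CPM in the SD files, against 200.2 and 199 CPM in the control files, a ratio of 1.17 (1.11 to 1.23). Of 8 measured genes, 5 had ratios above 1 and 3 below, 1 was called higher and none lower, and the median log2 ratio was 0.32.

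Col19a1, which in mouse hippocampus is known from interneurons, was called higher and had the highest ratio of all measured collagens. It had 132 and 130 reads in SD, against 58 and 54 in control, a ratio of 2.51 (1.82 to 3.49), and 3.91 with coding transcripts alone. Most of its reads were estimated on Col19a1-203, a transcript of the gene annotated without a coding sequence, with 94.7 and 94.8 reads in SD, against 46.4 and 46.1 in control. All 3 of its transcripts were above 1, with ratios of 2.21 to 4.56. The summed inhibitory neuron markers were at 938 CPM in SD and 993 CPM in control, with 0 of 6 measured called and a median ratio of 0.659. The largest part of the sum was Reln, at 594 CPM in SD and 437 CPM in control, while Gad1 was at 159 CPM in SD and 274 CPM in control. The part of these cells in the Col19a1 difference was not tested.

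The chains of type IX, which coat type II fibrils, again differed in value. Col9a2 had 377 and 365 reads in SD, against 279 and 274 in control, a ratio of 1.44 (1.23 to 1.69). Col9a3 had 1203 and 1209 reads in SD, against 1198 and 1200.4 in control, a ratio of 1.08 (0.995 to 1.17), or 0.997 with coding transcripts alone, and shares 6.07% of its bases with Tcfl5. Col9a1 had 55 and 55 reads in SD, against 78 and 73 in control, a ratio of 0.776 (0.538 to 1.11). The large Col12a1, which binds type I fibrils, was at 1.45 (1.30 to 1.62), and Col20a1 at 1.60 (1.33 to 1.92). Col16a1 had 449 and 439 reads in SD, against 622 and 628 in control, a ratio of 0.762 (0.673 to 0.862) that became 0.424 with the correction for transcript length and 1.18 with coding transcripts alone. Col22a1, known from the junction of muscle and tendon, had 17 and 16 reads in SD, against 24 and 24 in control, too few to place it on either side of 1.

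Transmembrane collagens summed to 55.4 and 56.0 CPM in the SD files, against 60.1 and 60.3 CPM in the control files, a ratio of 0.924 (0.839 to 1.02). None of the 4 was called, 2 ratios were above 1 and 2 below, and the median log2 ratio was -0.14. Without Col17a1, which had the most reads, the ratio of the sums was 1.07. Col17a1, a part of the hemidesmosomes that fix epithelial cells to their base, had 341 and 345 reads in SD, against 466 and 465 in control, a ratio of 0.789 (0.684 to 0.909). Col23a1 had 318 and 318 reads in SD, against 288 and 290 in control, a ratio of 1.18 (1.003 to 1.39). Col25a1, whose shed fragment is found in amyloid plaques of human brain, had 54 and 54 reads in SD, against 85 and 84 in control, a ratio of 0.689 (0.480 to 0.982).

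Col13a1, known from the neuromuscular junction, had the same total in both groups and different transcripts. It had 70 and 71 reads in SD, against 71 and 72 in control, a ratio of 1.04 (0.739 to 1.47). The coding transcript Col13a1-205, with 41 exons, held 45.7 and 59.5 reads in SD, against 9.71 and 16.8 in control, which is 74.7% of the gene's reads in SD and 18.6% in control. The non-coding Col13a1-202, with 25 exons, held 0 and 0 reads in SD, against 38.7 and 44.7 in control, which is 58.3% of the reads in control. Counting coding transcripts alone, Col13a1 was at 3.52 (2.13 to 6.05), and with the correction for transcript length at 0.800. Estimates differed between the files of a group, with Col13a1-203 at 24.3 and 0 reads in the SD files, so these shares are less certain than the totals.

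The multiplexins were represented by Col18a1, the collagen with the most reads. Col18a1, a basement membrane collagen whose end is cut off as endostatin, had 4580 and 4565 reads in SD, against 2904 and 2891 in control. The ratio was 1.69 (1.61 to 1.77), not 2-fold. Col15a1, the other multiplexin, had 56 and 52 reads in SD, against 80 and 78 in control, a ratio of 0.733 (0.509 to 1.05). The class sum was at 1.67 (1.59 to 1.75) and followed Col18a1.

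Col18a1 has starts 52825 bases apart, and 99.9% of its reads in both libraries were estimated on Col18a1-202, which begins near the upstream one. Col18a1-203, which begins at the downstream one, had 2.84 and 2.84 reads in SD, against 1.76 and 1.75 in control. Col18a1-201, which begins at base 77113946, inside the downstream stretch shown, was listed at 0 in all 4 files. These transcripts also differ at the 3′ end, at base 77052178 for Col18a1-202 and 77053016 for Col18a1-203. The estimates therefore do not by themselves separate the starts. The 250 bases before each start are shown from the RefSeq promoter table on GRCm38.p6 (minus strand, 5′ to 3′). Capitals mark the GC box letters GGGCGG or CCGCCC, searched on both strands.
Upstream start (chr10:77166531-77166780): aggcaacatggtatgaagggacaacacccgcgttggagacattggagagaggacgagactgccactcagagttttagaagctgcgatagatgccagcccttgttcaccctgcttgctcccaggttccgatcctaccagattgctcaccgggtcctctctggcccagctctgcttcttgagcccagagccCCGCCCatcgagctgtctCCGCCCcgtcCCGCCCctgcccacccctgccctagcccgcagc
Downstream start (chr10:77113706-77113955): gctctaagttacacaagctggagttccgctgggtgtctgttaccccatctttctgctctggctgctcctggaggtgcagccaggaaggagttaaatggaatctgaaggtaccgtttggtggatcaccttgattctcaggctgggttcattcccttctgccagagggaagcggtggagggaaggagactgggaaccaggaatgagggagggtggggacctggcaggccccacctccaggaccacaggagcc
The upstream window held these letters 3 times and the downstream window 0 times, and 32.7% of 32851 RefSeq promoter windows held them at least once. The upstream window held 12 CG dinucleotides and the downstream window 3. These are descriptions of letters and say nothing about a bound factor.

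Beaded filament collagens summed to 71.7 and 71.4 CPM in the SD files, against 61.4 and 61.4 CPM in the control files, a ratio of 1.17 (1.07 to 1.28). The sum is that of Col6a1, and without it the ratio was 0.690. Of 6 genes, 1 was called higher and 3 lower, where 4.37% of all measured genes were called higher and 5.54% lower. Col6a5 and Col6a6, both called lower, passed the filter on low counts only through control, so their direction was fixed by the filter.

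Type VI filaments are built from an alpha1, an alpha2 and a longer chain, which can be alpha3 or one of the later described alpha4 to alpha6. Col6a1 had 885 and 879 reads in SD, against 731 and 729 in control, a ratio of 1.30 (1.17 to 1.43). Col6a2 had 68 and 68 reads in SD, against 96 and 95 in control, a ratio of 0.759 (0.548 to 1.05). Among the longer chains, Col6a3 was called higher, with 40 and 39 reads in SD, against 20 and 20 in control, a ratio of 2.14 (1.22 to 3.87). With the correction for transcript length its ratio was 1.33 and the call was lost. The remaining longer chains were all called lower at low counts. Col6a4 had 17 and 17 reads in SD, against 49 and 50 in control, a ratio of 0.365 (0.197 to 0.643). Col6a5 had 1 and 1 reads in SD, against 17 and 17 in control, a ratio of 0.0631 (0.00151 to 0.403). Col6a6 had 2 and 2 reads in SD, against 17 and 16 in control, a ratio of 0.134 (0.0149 to 0.570). In humans COL6A4 is disrupted, and the 3 mouse genes lie in a row.

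Short-chain network collagens were low. Col8a2, known from the membrane behind the cornea, had 57 and 57 reads in SD, against 76 and 75 in control, a ratio of 0.804 (0.560 to 1.15). Col8a1 had 23 and 24 reads in SD, against 41 and 41 in control, a ratio of 0.628 (0.363 to 1.06). Of the collagens outside these classes, Col7a1, which forms the anchoring fibrils of skin, had 1974 and 1946 reads in SD, against 1124 and 1125 in control. Its ratio was 1.87 (1.74 to 2.01), just short of 2-fold. Col28a1, known from peripheral nerve, was called lower, with 7 and 7 reads in SD, against 37 and 36 in control, a ratio of 0.208 (0.0783 to 0.475). Col26a1 had 41 and 42 reads in SD, against 50 and 50 in control, a ratio of 0.901 (0.583 to 1.39), which became 0.292 with the correction for transcript length.

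Neighbouring collagen genes could be set side by side, in 10 pairs of collagens that follow each other on a chromosome and lie at most 364345 bases apart. The type IV genes lie head to head in pairs that are known to share a promoter, and the members of each pair had ratios on the same side of 1. Col4a1 and Col4a2 overlap by 22 bases on chromosome 8 and were at 0.867 and 0.869. Col4a3 and Col4a4 lie 71 bases apart on chromosome 1 and were at 1.998 and 1.47, and Col4a5 and Col4a6 lie 1308 bases apart on chromosome X and were at 1.23 and 1.10. Col3a1 and Col5a2, which lie 24614 bases apart tail to tail on chromosome 1, were at 0.654 and 0.626. Col6a6, Col6a5 and Col6a4, with gaps of 27917 and 28810 bases on chromosome 9, were all called lower. Since Col6a6 and Col6a5 passed the filter on low counts only through control, their direction was fixed, and only that of Col6a4 was not. Of the remaining pairs, Col6a1 at 1.30 and Col18a1 at 1.69, 326009 bases apart, and Col9a3 at 1.08 and Col20a1 at 1.60, 364345 bases apart, were on the same side of 1. The other two were on opposite sides: Col19a1 at 2.51 lies 9205 bases from Col9a1 at 0.776, and Col6a1 lies 85161 bases from Col6a2 at 0.759. Genes that lie close together can share sequence and local annotation, and whether position matters was not tested.

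Transcript estimates were also compared by the part of the gene that a transcript holds. They are a model's split of shared reads and not read positions. The comparison that follows was chosen after the transcript values of the collagens, Col24a1 and Col4a5 among them, had been seen. Col4a5 is among the collagens counted, so the collagen counts and pooled shares describe the values that prompted the comparison. A partial transcript was defined as at most 60% as long as the gene's longest coding transcript. It was a 3′ end transcript when it ended within 500 bases of that transcript's 3′ end and began more than 500 bases from its 5′ end, and an inner transcript when both ends were farther than 500 bases. Genes with at least 50 reads in each library were used.

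In 5 of the 6 collagens with a 3′ end transcript its share of the reads was lower in SD. Col4a5-204, with the last 21 exons of Col4a5, held 166 and 171 reads in SD, against 266 and 266 in control, which is 44.1% of the gene's reads in SD and 79.9% in control. The full-length Col4a5-201 held 172 and 195 reads in SD, against 68.0 and 65.5 in control, a ratio of 2.93 (2.20 to 3.94), although the gene as a whole was at 1.23. Col16a1-207 held 71.1 and 78.0 reads in SD, against 268 and 238 in control, a share of 16.8% in SD and 40.4% in control. Col15a1-203 held 47.6% in SD and 68.7% in control, Col12a1-204 held 21.7% in SD and 30.2% in control, and Col7a1-208 held 10.5% in SD and 16.4% in control. The exception was Col13a1-206, with 5.05% in SD and 0% in control, its reads estimated in 1 SD file only. Col13a1-202, which ends at the same 3′ end, was just over the 60% limit, with 1948 bases against 3162 in Col13a1-205. It was not counted here, and its share was 0% in SD and 58.3% in control, so this exception depends on the limit. Pooled over the 6 collagens, 3′ end transcripts held 17.5% of reads in SD and 33.1% in control. The same direction was seen over all genes: among 1807 genes with such a transcript the share was lower in SD in 61.4% and higher in 29.2%, and pooled it was 23.6% in SD and 28.4% in control. A lower share in SD was thus the more common direction over all genes too.

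**Figure D4:**
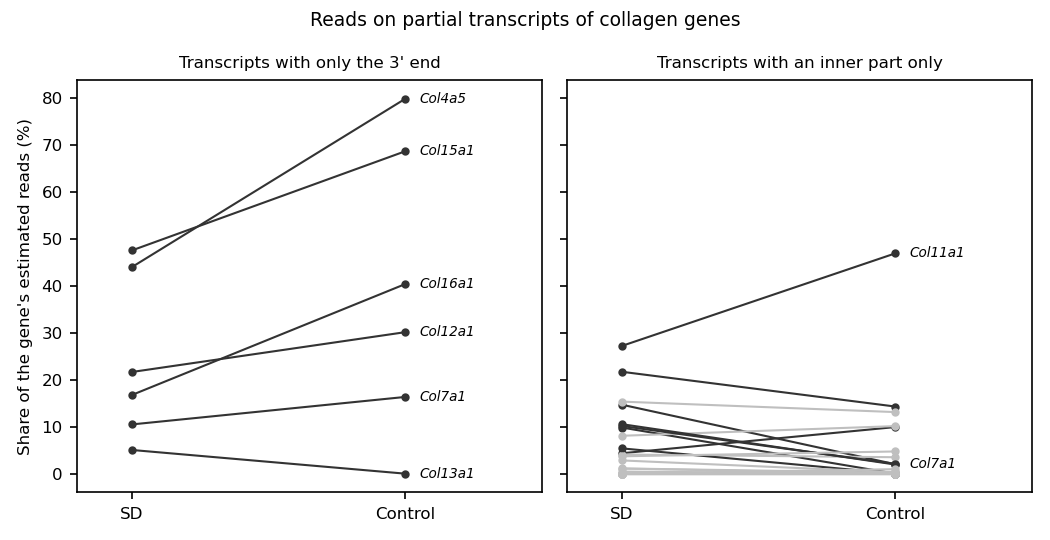
Share of a collagen gene's estimated reads on partial transcripts in the SD and control library (percent, 1 line per gene), for transcripts that hold only the 3′ end (left) and only an inner part (right), with changes of under 5 points in light grey and names on the right panel from 12 points. The share on 3′ end transcripts was lower in SD in 5 of 6 genes, for Col4a5 at 44.1% against 79.9% in control.

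Inner transcripts went the other way in more genes. Of 27 collagens with one, 12 had a higher share in SD and 7 a lower one, and the pooled share was 6.74% in SD and 4.60% in control. Over all 7556 genes with an inner transcript, the share was higher in SD in 49.8% and lower in 32.4%, and pooled it was 8.01% in SD and 7.55% in control. The share on inner transcripts differed most in Col11a1, at 27.2% in SD and 47.0% in control, and in Col7a1, at 14.7% in SD and 2.01% in control. Col7a1-203, a retained-intron transcript of 44 exons, held 268 and 291 reads in SD, against 19.6 and 19.3 in control, a ratio of 15.7 (9.89 to 26.5). Col11a1-204, a transcript annotated for nonsense-mediated decay, held 90.0 and 96.7 reads in SD, against 239 and 245 in control, a ratio of 0.412 (0.321 to 0.525). The full-length Col11a1-201 was at 0.998 (0.838 to 1.19), so that the lower total of Col11a1 was estimated mostly on Col11a1-204.

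Retained-intron transcripts of the 44 collagens together held 739 reads in SD and 361 in control, a ratio of 2.19 (1.93 to 2.50). Most of these reads were estimated on Col7a1, with 494 in SD and 207 in control. Their share of collagen reads was 3.49% in SD and 2.18% in control, against 13.3% in SD and 10.7% in control over all measured genes. Higher in SD were Col7a1-203, Col9a3-202 with a mean of 64.4 reads in SD and 12.9 in control, and Col11a2-207 with 62.7 and 70.2 reads in SD, against 0 and 0 in control. Col24a1-204 went the other way, with 0 and 0 reads in SD, against 79.8 and 78.6 in control. Of 21 collagens with enough reads and such a transcript, the share was higher in SD in 7, lower in 6 and equal in 8. Coding transcripts of the collagens held 91.4% of reads in SD and 90.6% in control, and their ratio was 1.39 (1.36 to 1.42).

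The ratios also moved with base composition. GC content, weighted by the reads on a gene's transcripts, had a median of 55.3% over measured collagens and 49.8% over all measured genes. Across the 42 collagens the log2 ratio and GC content had a Spearman correlation of 0.35, a description over genes that share both libraries, and over all measured genes it was 0.15. Col6a5, Col28a1 and Col6a6, all below 55% GC, passed the filter on low counts only through control, and without them the correlation was 0.27. Among the 8 collagens between 45 and 50% GC that passed in both libraries, 3 ratios were above 1 and the median log2 ratio was -0.49, where all 3864 measured genes in that band had a median of -0.06. Among the 8 collagens above 60% GC, 5 were above 1 and the median was 0.56, where all 559 genes in that band had a median of 0.15. Col24a1, at 45.02% GC, and Col5a3, at 61.6% GC, follow this order. For Col24a1 the GC value is not independent of the ratio, since the weights include Col24a1-204, which had reads in control only. Col24a1-204 is at 39.1% GC and the full transcript Col24a1-201 at 51.0%. Among those that go against it are Col19a1, at 48.5%, and Col2a1, at 62.4%. The part of GC content in the collagen ratios was not tested.

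**Figure D5:**
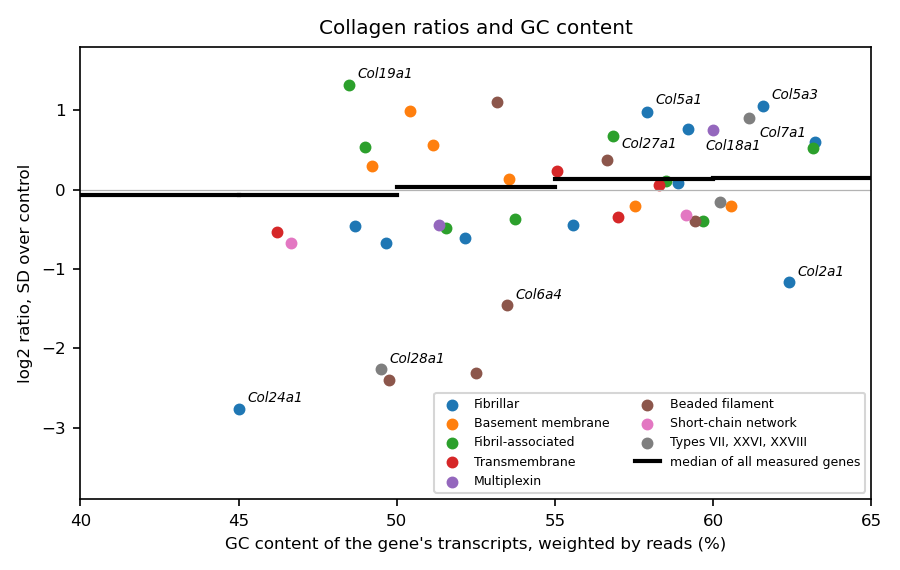
log2 ratio of SD over control against the GC content of the gene's transcripts (percent, weighted by reads) for the 42 measured collagens, coloured by class, with black bars for the median of all measured genes in each GC band; libraries with fewer than 3 reads were set to 3 for the ratio. Collagens at high GC lie above 0 more often than those at low GC, and Col19a1 and Col2a1 are among those that go against this order.

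Proteins that make, bind or cut collagen were read from 6 lists. Among all measured genes 4.37% were called higher and 5.54% lower. Of the enzymes and chaperones that modify and fold collagen in the endoplasmic reticulum, 0 of 21 measured genes were called, and the median log2 ratio was 0.12. The most abundant of them per length was P3h3, a prolyl 3-hydroxylase family gene, with 275 and 277 CPM in SD, against 207 and 207 CPM in control, a ratio of 1.33 (1.27 to 1.40). Ppib, the cyclophilin that helps fold procollagen, was at 1.82 (1.73 to 1.91), and Serpinh1, the collagen chaperone HSP47, at 0.994 (0.752 to 1.31). Of the genes for propeptide removal and crosslinking, 0 of 13 measured were called higher and 1 lower, with a median log2 ratio of -0.13. The gene called was Pcolce2, an enhancer of procollagen C-proteinase, with 3.89 and 3.91 CPM in SD, against 8.52 and 8.41 CPM in control, a ratio of 0.461 (0.330 to 0.637). With coding transcripts alone 0 genes of this list were called. The proteinase itself, Bmp1, was the most abundant and was at 1.18 (1.16 to 1.21).

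Of 9 measured collagen receptors 1 was called higher and 1 lower, where 4.37% of all measured genes were called higher and 5.54% lower. The median log2 ratio of the receptors was 0.11. Itga10, the alpha chain of a collagen-binding integrin known from cartilage, had 49.8 and 48.0 CPM in SD, against 14.2 and 14.6 CPM in control, a ratio of 3.41 (2.92 to 3.99). Per length it was at 29.8 TPM in SD and 5.46 TPM in control. The most abundant receptor gene over both libraries was Itgb1, the beta chain shared by these integrins, at 26.6 TPM in SD and 21.2 TPM in control, a ratio of CPM of 1.08 (0.971 to 1.20). Itga2, the integrin chain for collagen on platelets, had 3 reads in SD and 14 in control, a ratio of 0.230 (0.0423 to 0.823), called lower; it passed the filter only through control and so had to be low in SD. The discoidin receptor gene Ddr1 was at 1.19 (1.06 to 1.33), and Lair1, an inhibitory collagen receptor of immune cells, at 1.79 (1.49 to 2.15).

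In the degradation list 0 of 9 measured genes were called higher and 2 lower, where 4.37% of all measured genes were called higher and 5.54% lower. The median log2 ratio of the list was -0.54. The genes called were Mmp13, a collagenase, with 4 reads in SD and 31 in control, a ratio of 0.138 (0.0355 to 0.391), and Mmp9, a gelatinase, at 0.399 (0.280 to 0.560). Mmp13 passed the filter only through control and so had to be low in SD. Timp4, an inhibitor of these proteases, was the most abundant and was at 0.686 (0.621 to 0.757). None of the 16 basement membrane partners was called, with a median log2 ratio of 0.27. The most abundant, Sparc, which binds collagen in the matrix, was at 0.806 (0.771 to 0.843), the laminin gene Lamb1 at 1.66 (1.52 to 1.82) and the perlecan gene Hspg2 at 1.32 (1.13 to 1.55). Of the 15 collagen-binding matrix proteins 1 was called higher and 1 lower, with a median log2 ratio of -0.25. Thbs1, a thrombospondin, was at 2.49 (1.65 to 3.84), Dcn, which coats type I fibrils, at 0.318 (0.204 to 0.483), and the most abundant, Sparcl1, at 0.766 (0.735 to 0.799).

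Markers of cells that make collagen were present in both libraries. For the counts of called markers below, 4.37% of all measured genes were called higher and 5.54% lower. The fibroblast markers, of which 11 of 12 were measured, summed to 74.8 CPM in SD and 91.6 CPM in control, with 0 called higher and 1 lower. The endothelial markers summed to 205 CPM in SD and 198 CPM in control, with 0 of 10 called, and the mural cell markers to 137 CPM in SD and 197 CPM in control, with 3 of 10 called lower. The choroid plexus and ependymal markers summed to 346 CPM in SD and 345 CPM in control, with 1 of 8 called lower. The microglia markers summed to 550 CPM in SD and 170 CPM in control, with 10 of 12 called higher. Astrocyte markers summed to 973 CPM in SD and 1585 CPM in control, with 3 of 7 called lower, and oligodendrocyte markers to 2136 CPM in SD and 3400 CPM in control, with 2 of 6 called lower. Oligodendrocyte precursor markers summed to 73.7 CPM in SD and 74.5 CPM in control, with 2 of 5 called lower, 1 of which, C1ql1, passed the filter only through control. Excitatory neuron markers summed to 448 CPM in SD and 335 CPM in control, with 0 of 6 measured called and a median ratio of 1.01, and the difference in the sum lay in Slc17a7, at 260 CPM in SD and 152 CPM in control. No marker list had a member at 0 in both libraries. The part of these cells in the collagen ratios was not tested, and the collagen reads could not be assigned to microglia.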

How the data were processed

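The submitters' processing notes name Salmon, DESeq2 and mm10 (GRCm38). Versions, read layout and strand use were not given in the sources used here. Per the file headers, the authors deposited estimated counts (unnormalized, per transcript) and TPM for 116546 transcripts. A transcript estimate divides shared reads by a model, so overlapping, antisense and near-identical genes are uncertain.

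Transcripts were matched by identifier to GENCODE release 21 (115898 matched, 99.4%), and estimated counts were summed to 35427 genes and rounded. Unmatched transcripts, 0.339 to 0.366% of reads, were left out. The planned edgeR quasi-likelihood test needs more than 1 library per group and was replaced by the size rule. Counts were scaled by TMM in edgeR 4.0.16 (R 4.3.3); filterByExpr with a minimum count of 10 kept 14907 measured genes. Libraries with fewer than 3 reads were set to 3 for the fold. Intervals are exact conditional (Clopper-Pearson) ones at 95%. The rule was tested on simulated data. The length correction divides by the TPM-weighted effective length of each gene.

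Members, classes and lists were chosen with earlier results of these data known, and the partial-transcript comparison after transcript values were seen. Named were all called collagens, the 3 of highest TPM per class, Col24a1 transcripts with at least 10 reads, collagens with a transcript share that differed by 25 points or more (Col13a1 and Col4a5), and, of each other list, called genes (at most 5) and the most abundant. Other members are given for completeness, and other genes (Serpinh1, Ddr1, Lair1, Lamb1, Hspg2, Ppib) and transcripts were added after their values were seen. Alternatives were DESeq2 1.42.0 size factors, no filter, the length correction, coding transcripts only, a 1.5-fold limit and leaving out each file.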

Additional observations from a re-analysis of the deposited data

How the results depend on the processing

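No paired analysis was possible because the 2 files of a group count as 1 library; the replicate block, the edgeR quasi-likelihood test and the DESeq2 Wald test were not run. Over the 42 measured collagens, DESeq2 size factors and TMM over measured genes alone changed no call. Dropping the filter kept the same counts and scaling for these genes, so their calls could not change. Leaving out any 1 file changed no call either, but the files of a group differ by less than sampling noise, so this is no check. The median of all genes lay between -0.01 and 0.10 on the log2 scale in every setting. The length correction ended the call of Col6a3 (1.33) and added calls for Col11a2 (2.82), Col5a1 (2.06), Col4a3 (2.01), Col16a1 (0.424) and Col26a1 (0.292). Coding transcripts alone added Col13a1 (3.52) and Col4a3 (2.03). Collagens called higher then numbered 5 with the length correction, 5 with coding transcripts alone and 10 at 1.5-fold, and those called lower 8, 6 and 8. At 1.5-fold 1903 of the 14907 measured genes were called higher and 1961 lower. With the length correction the ratio of summed CPM was 1.08 for fibril-associated collagens, 1.25 for types VII, XXVI and XXVIII and 1.33 for all collagens. With coding transcripts alone it was 1.65 for types VII, XXVI and XXVIII and 1.41 for all collagens. Alternatives chosen after seeing the data kept only genes that passed the filter in both libraries, where the median collagen log2 ratio was 0.060, against -0.18, and the GC correlation 0.27, or left out the member with the most reads of a class. Without that member the ratio was 1.31 for fibrillar collagens, 1.07 for transmembrane collagens, 1.31 for all collagens, and on the other side of 1 for multiplexins (0.733), beaded filament collagens (0.690) and types VII, XXVI and XXVIII (0.611). Calls in the partner lists moved for modification and folding (1 with the length correction, 1 with coding transcripts, 5 at 1.5-fold), propeptide removal (0 with coding transcripts, 3 at 1.5-fold), receptors (4 with the length correction, 4 at 1.5-fold), degradation (4 at 1.5-fold), basement membrane partners (1 with coding transcripts, 7 at 1.5-fold) and binding proteins (4 with coding transcripts, 4 at 1.5-fold). Of the cell type sums, the length correction moved fibroblast (0.736), excitatory neuron (1.41), astrocyte (0.641) and oligodendrocyte precursor markers (1.23), and turned inhibitory neuron markers (1.02, against 0.945). Coding transcripts alone gave 1.20 for excitatory neuron, 0.979 for inhibitory neuron and 1.08 for oligodendrocyte precursor markers. The cause of these moves was not tested. Low counts limit Col6a5, Col6a6 and Col28a1, each with at most 7 reads in SD.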
